A study of Homo sapiens with 10 samples.

Results

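The 37 genes described here encode the endoplasmic reticulum (ER) machinery of the unfolded protein response, chosen by name as its sensors, chaperones, folding enzymes and degradation factors. They are 37 of 20289 genes in the table, and each was found by its Ensembl identifier and symbol. RNA-seq was done on the human pancreatic ductal adenocarcinoma lines PANC-1 and CFPAC-1, to look for regulators of ferroptosis, the form of cell death driven by lipid peroxidation. PANC-1 received 1 µM imidazole ketone erastin (IKE, 4 libraries) and was set against PANC-1 with 0.1% DMSO (2 libraries). CFPAC-1 received 10 µM IKE (2 libraries) and was set against CFPAC-1 with 0.1% DMSO (2 libraries). All groups were collected after 24 h, and only surviving cells were sequenced, with dead cells and debris removed first. IKE is an erastin derivative that blocks the cystine importer system xc-. Because the dose differs between the lines, line and dose cannot be told apart.

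Proteins that enter the secretory pathway fold in the ER lumen, where chaperones hold them, disulfide enzymes join their cysteines and lectins retain glycoproteins until they are folded. When unfolded proteins accumulate, the membrane sensors ATF6, IRE1 (gene ERN1) and PERK (gene EIF2AK3) signal to the nucleus. ATF6 is cut in the Golgi to free a transcription factor, IRE1 splices XBP1 mRNA to make another, and PERK slows translation and raises ATF4. These factors are known to induce chaperone and degradation genes, in part through promoter elements called ERSE and ERSE-II. Exocrine pancreas is known for a large ER, and the lines studied here are ductal carcinoma cells.

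Values are FPKM (fragments per kilobase of transcript, scaled to library size), a level per length, so levels of different genes can be set side by side. Library FPKM totals ran from 405937 to 472665, with 11604 to 12248 genes at 1 FPKM or more, and mitochondrial genes took 2.65% to 5.27% of the total, highest in PANC-1 IKE replicate 3. Read counts were not used here, so depth is unknown. All 7 ductal and carcinoma epithelium markers reached 1 FPKM in both lines. KRT7, EPCAM and MUC1 were far lower in PANC-1 libraries (4.39 to 6.15, 8.58 to 11.1 and 14.2 to 19.8 FPKM) than in CFPAC-1 libraries (271.4 to 330.4, 151.9 to 157.9 and 228.5 to 285.6 FPKM). KRT19 and SOX9 were also lower in PANC-1 (721.4 to 891.3 and 27.9 to 32.1 FPKM, against 2006 to 2228 and 41.9 to 47.1 FPKM in CFPAC-1). KRT18 was higher in PANC-1 (1465 to 1803 against 1239 to 1340 FPKM), and KRT8 overlapped (2621 to 3095 against 2141 to 2773 FPKM). VIM, a mesenchymal-like marker, was higher in PANC-1 (1910 to 2083 against 529.3 to 606.9 FPKM). Of other cell types, the leukocyte genes PTPRC and CD3E stayed at or under 0.04 FPKM, and the endocrine genes INS, GCG and SST were listed at 0 in all libraries. The acinar markers summed to at most 0.27 FPKM. The fibroblast gene COL1A1 was at 17.9 to 24.9 FPKM in PANC-1 and 3.56 to 5.64 FPKM in CFPAC-1, while COL1A2, DCN and LUM reached at most 0.83 FPKM. CD68 was present in both lines, at 24.0 to 32.5 FPKM in PANC-1 and 42.0 to 46.3 FPKM in CFPAC-1, while LYZ and the endothelial gene PECAM1 were present in CFPAC-1 alone (20.4 to 26.1 and 18.4 to 21.3 FPKM). The other endothelial genes listed, VWF and CDH5, reached at most 0.03 and 0.3 FPKM in any library.

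With IKE, PANC-1 cells had more RNA of a small set of ER folding genes. HSPA5, the main ER chaperone BiP, rose 1.43-fold, HERPUD1 rose 1.38-fold, CRELD2 rose 1.34-fold, and HSP90B1, HYOU1 and CALR rose 1.25-, 1.25- and 1.21-fold. Among the 36 tested genes of the 37, 6 were higher with IKE and 0 were lower at an adjusted p under 0.05 (limma on log2(FPKM + 1)), against a background of 1.21% higher and 1.17% lower (2.38% in either direction) among all 13077 genes tested. At an unadjusted p under 0.05, 13 were higher and 1 was lower, against 1094 higher and 1209 lower of all 13077 genes. The median log2 fold change of the 36 genes was 0.08, against -0.01 for all genes. All PANC-1 IKE libraries lay above both DMSO libraries for 13 of the 37 genes, and below them for 1, where the background is 12.3% above and 13.6% below. Summed over the 37 genes, PANC-1 IKE libraries held 2829, 2943, 2814 and 2831 FPKM, against 2550.2 and 2532 FPKM in PANC-1 DMSO libraries. That was 0.637%, 0.623%, 0.627% and 0.634% of all FPKM with IKE, against 0.590% and 0.568% with DMSO, so the groups did not overlap. In these bulk samples, a larger share of cells with a high level and more RNA per cell cannot be told apart.

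HSPA5, the Hsp70 chaperone of the lumen that also keeps the sensors inactive, measured 208.0, 213.4, 190.0 and 208.9 FPKM in PANC-1 IKE libraries, against 142.0 and 145.8 FPKM in PANC-1 DMSO libraries. Every treated library lay above both controls, and the mean was 205.1 ± 10.4 FPKM with IKE against 143.9 ± 2.64 FPKM with DMSO (SD, n = 4 and 2; log2 fold change 0.51, SE 0.06, adjusted p = 0.00199). The lowest of the treated libraries was replicate 3, the library with the highest mitochondrial share. The call held with each of the 10 libraries left out in turn, at adjusted p from 0.00102 to 0.0445.

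HSP90B1 (GRP94), the Hsp90 chaperone of the ER, measured 161.8, 155.8, 180.7 and 175.4 FPKM in PANC-1 IKE libraries, against 131.4 and 138.3 FPKM in PANC-1 DMSO libraries (log2 fold change 0.32, SE 0.068, adjusted p = 0.0365). HYOU1 (GRP170), a large Hsp70-like protein that also releases nucleotide from BiP, measured 113.7, 121.7, 119.0 and 106.7 FPKM in PANC-1 IKE libraries, against 92.6 and 92.0 FPKM in PANC-1 DMSO libraries (log2 fold change 0.32, SE 0.065, adjusted p = 0.0295). For both genes every treated library was above both controls. CALR, the soluble calcium-binding lectin chaperone, measured 463.4, 509.8, 462.2 and 462.0 FPKM in PANC-1 IKE libraries, against 391.7 and 390.0 FPKM in PANC-1 DMSO libraries (log2 fold change 0.28, SE 0.057, adjusted p = 0.0297). Here replicate 2 stood above the other treated libraries, which ran from 462.0 to 463.4 FPKM and were still above both controls. CALR was the most abundant of the 37 genes in PANC-1, with means of 474.4 ± 23.6 FPKM with IKE and 390.8 ± 1.22 FPKM with DMSO (SD, n = 4 and 2).

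CRELD2, a small luminal and secreted protein known as an ER stress gene, measured 15.3, 17.1, 17.3 and 16.4 FPKM in PANC-1 IKE libraries, against 12.1 and 12.6 FPKM in PANC-1 DMSO libraries (log2 fold change 0.39, SE 0.074, adjusted p = 0.0205). HERPUD1, an ER membrane protein with a ubiquitin-like domain that serves the degradation of misfolded proteins, measured 18.4, 16.1, 16.1 and 16.2 FPKM in PANC-1 IKE libraries, against 12.8 and 11.4 FPKM in PANC-1 DMSO libraries (log2 fold change 0.44, SE 0.078, adjusted p = 0.0171). In both genes the groups did not overlap, and HERPUD1 replicate 1 was the highest. The calls of HERPUD1 and CRELD2 were lost without PANC-1 DMSO replicate 1 or 2 (adjusted p = 0.0727 to 0.144 for HERPUD1 and 0.108 to 0.214 for CRELD2). HYOU1 was lost without CFPAC-1 IKE replicate 1 or 2, PANC-1 DMSO replicate 1 or 2, or PANC-1 IKE replicate 1 or 3 (0.0538 to 0.219), CALR with any library left out except PANC-1 IKE replicate 2 or 3 (0.0504 to 0.219), and HSP90B1 with any left out except PANC-1 IKE replicate 2 (0.0511 to 0.281). HSP90B1, HYOU1 and CALR were also lost with no low-value filter, each line fitted alone or no intensity trend (0.0502 to 0.0903), HSP90B1, CALR and CRELD2 with PANC-1 IKE replicates 1 and 2 alone (0.116, 0.0560 and 0.0842), and HSP90B1 and CALR after quantile normalization (0.0704 and 0.0922).

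**Figure D1:**
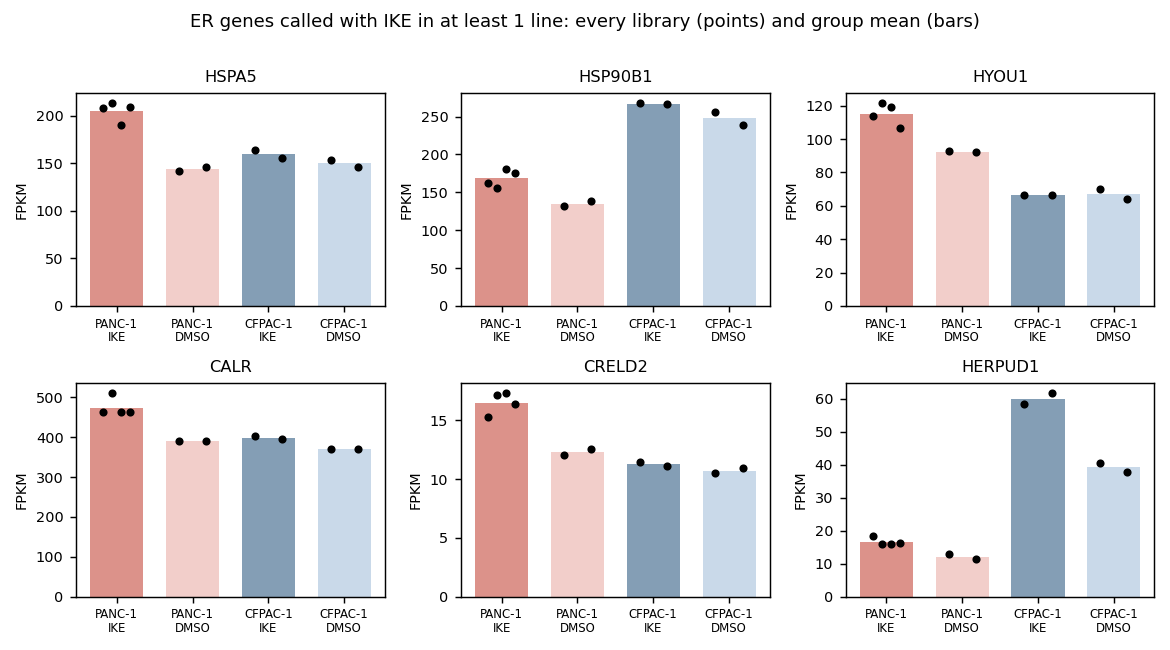
FPKM of the 6 ER genes that passed the test with IKE in at least 1 line, with each library as a point and each group mean as a bar (n = 4 for PANC-1 IKE, n = 2 for the other groups). The PANC-1 IKE points lie above the PANC-1 DMSO points in every panel, and among the CFPAC-1 panels the test was passed by HERPUD1, with 58.5 and 61.7 FPKM with IKE against 40.6 and 37.9 FPKM with DMSO.

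The promoters of these 6 genes are shown because the genes passed the test with IKE. Every one of them holds an exact ERSE or ERSE-II, the elements through which ATF6 and XBP1 are known to act. ERSE was searched as CCAAT, any 9 bases and CCACG, and ERSE-II as ATTGG, any 1 base and CCACG, on both strands of RefSeq windows (GRCh38.p14) from 250 bases before to 50 after a start site. The 250 bases before each start are printed 5′ to 3′ on the gene's strand, and capitals mark the fixed letters of each match. The windows are chr9:125241344-125241593 (minus strand), chr12:103930160-103930409 (plus), chr11:119057206-119057455 (minus), chr19:12938359-12938608 (plus), chr22:49918384-49918633 (plus) and chr16:56931892-56932141 (plus).
HSPA5: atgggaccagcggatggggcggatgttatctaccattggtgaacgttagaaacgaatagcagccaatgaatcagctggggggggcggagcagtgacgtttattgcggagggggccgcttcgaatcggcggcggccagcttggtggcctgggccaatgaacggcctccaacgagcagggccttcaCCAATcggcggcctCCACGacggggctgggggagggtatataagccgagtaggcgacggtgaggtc
HSP90B1: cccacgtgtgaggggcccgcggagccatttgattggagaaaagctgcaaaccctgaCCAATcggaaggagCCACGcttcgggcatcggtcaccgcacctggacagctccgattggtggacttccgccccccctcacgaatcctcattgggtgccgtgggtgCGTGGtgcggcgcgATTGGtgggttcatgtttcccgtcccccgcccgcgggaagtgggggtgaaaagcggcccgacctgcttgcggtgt
HYOU1: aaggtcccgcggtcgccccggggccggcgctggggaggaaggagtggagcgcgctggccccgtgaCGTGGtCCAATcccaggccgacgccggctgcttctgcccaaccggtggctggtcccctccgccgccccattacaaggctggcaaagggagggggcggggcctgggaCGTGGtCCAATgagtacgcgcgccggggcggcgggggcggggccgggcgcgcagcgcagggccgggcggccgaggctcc
CALR: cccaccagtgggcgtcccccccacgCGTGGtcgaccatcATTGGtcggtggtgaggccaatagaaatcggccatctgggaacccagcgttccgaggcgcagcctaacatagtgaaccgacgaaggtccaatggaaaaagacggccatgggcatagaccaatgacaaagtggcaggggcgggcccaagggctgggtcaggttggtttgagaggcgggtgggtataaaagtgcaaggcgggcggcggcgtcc
CRELD2: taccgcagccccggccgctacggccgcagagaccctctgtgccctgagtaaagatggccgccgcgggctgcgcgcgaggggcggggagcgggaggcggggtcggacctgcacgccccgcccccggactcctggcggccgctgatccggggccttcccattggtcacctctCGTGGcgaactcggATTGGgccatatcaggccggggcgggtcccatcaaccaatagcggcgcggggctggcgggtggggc
HERPUD1: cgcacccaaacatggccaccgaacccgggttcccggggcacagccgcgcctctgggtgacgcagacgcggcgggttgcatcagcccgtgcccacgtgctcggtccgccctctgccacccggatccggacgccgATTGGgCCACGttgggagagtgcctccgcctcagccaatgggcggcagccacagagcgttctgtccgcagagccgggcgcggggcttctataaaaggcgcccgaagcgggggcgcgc
HSPA5 has its ERSE 66 to 48 bases before the start. HSP90B1 has a pair of them, 194 to 176 bases before the start and, on the other strand, 89 to 71 bases before it. CALR and CRELD2 each have 1 on the other strand, at 225 to 207 and 80 to 62 bases. HYOU1 has ERSE-II on the other strand at 185 to 175 and at 79 to 69 bases, and HERPUD1 has it at 117 to 107 bases. RefSeq starts can differ from those of other annotations, so the distances hold for these starts alone.

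Of the 37 genes, 33 have a RefSeq window, and PDIA3, SEC24D, DERL1 and DERL3 were not searched. An exact ERSE is present in 27 of all 35116 windows (0.0769%) and in the windows of 8 of the 33 genes, namely XBP1, HSPA5, HSP90B1, CALR, CANX, PDIA6, ERO1B and CRELD2. An exact ERSE-II is present in 19 windows (0.0541%) and in 3 of the 33 genes, HYOU1, SDF2L1 and HERPUD1. The 11 genes with either element include all 6 that rose in PANC-1, and their PANC-1 log2 fold changes ran from -0.39 (ERO1B) to 0.51 (HSPA5), with a median of 0.28. Of the 22 genes with neither, 0 passed the test in PANC-1, with a range of -0.16 to 0.40 and a median of 0.06. The split rests on calls that changed with the libraries used, as given for the 6 genes above. DNAJB11 and ERN1, which hold neither element, passed in PANC-1 when PANC-1 IKE replicate 2 was left out. In CFPAC-1 the medians were 0.11 with and 0.07 without an element, and 1 and 0 genes passed. The 37 genes were drawn from known targets and parts of this response, so the overlap describes the list and no test was made. The UPRE core TGACGTG was present in 692 windows (1.97%) and in HYOU1, where it overlaps an ERSE-II, TXNDC5 and SEC61A1. The ATF4 element core TGATG, any 1 base and AA, was present in 1270 windows (3.62%) and in CREB3L2 and HERPUD1. A match of letters is not a bound site.

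**Figure D2:**
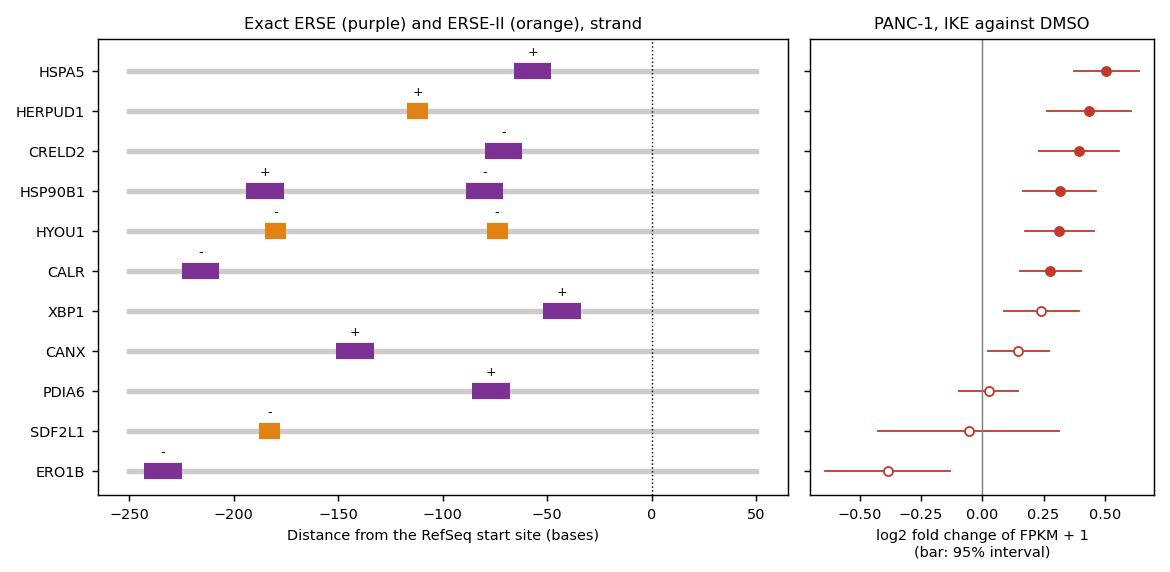
Left, positions of exact ERSE (purple) and ERSE-II (orange) matches, with their strand, in bases from the RefSeq start site of the 11 ER genes that hold either element; CANX has the same site in 3 overlapping windows and 1 window is drawn. Right, the PANC-1 log2 fold change of FPKM + 1, IKE against DMSO, with its 95% interval and filled points for an adjusted p under 0.05; the 6 filled points lie between 0.28 (CALR) and 0.51 (HSPA5).

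By role, the 6 genes were 3 of 7 chaperones and cochaperones, 1 of 2 lectin chaperones, 1 of 2 small luminal stress proteins and 1 of 9 tested degradation factors. Of the sensors and their factors 0 of 5 passed, as did 0 of 7 disulfide enzymes and 0 of 4 membrane, translocon and export genes. Median log2 fold changes were 0.23 for chaperones, 0.22 for sensors and factors, 0.03 for disulfide enzymes and -0.03 for membrane, translocon and export genes. The summed level of the 7 chaperones was 557.2, 554.8, 562.1 and 563.0 FPKM in PANC-1 IKE libraries, against 430.0 and 438.3 FPKM in PANC-1 DMSO libraries. The 7 disulfide enzymes summed to 957.3, 999.9, 904.0 and 946.3 FPKM with IKE, against 928.0 and 903.5 FPKM with DMSO. The chaperone sums were thus separate by group and the disulfide enzyme sums were interleaved.

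The other chaperones of PANC-1 did not pass the test. DNAJB11 (ERdj3), which hands clients to BiP, measured 39.6, 35.1, 43.5 and 42.5 FPKM in PANC-1 IKE libraries, against 35.0 and 32.8 FPKM in PANC-1 DMSO libraries (log2 fold change 0.23, SE 0.086, adjusted p = 0.189). Its groups did not overlap, and it passed without PANC-1 IKE replicate 2 (log2 fold change 0.30, adjusted p = 0.0432). DNAJC3, which also works with BiP, had a log2 fold change of 0.03 and SDF2L1, an ERdj3 partner, a value of -0.06, with treated libraries on both sides of the controls. MANF, a secreted luminal stress protein, measured 26.5, 29.3, 28.4 and 26.3 FPKM in PANC-1 IKE libraries, against 20.6 and 25.1 FPKM in PANC-1 DMSO libraries (log2 fold change 0.27, SE 0.087, adjusted p = 0.135). CANX, the membrane-bound partner of CALR, had a log2 fold change of 0.15 (adjusted p = 0.21).

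Among disulfide enzymes, PDIA3, the isomerase that works with the lectin chaperones, was nearest to the threshold at 145.3, 149.4, 152.7 and 150.6 FPKM in PANC-1 IKE libraries, against 125.3 and 134.9 FPKM in PANC-1 DMSO libraries (log2 fold change 0.20, SE 0.052, adjusted p = 0.0701). PDIA4, PDIA6, P4HB and TXNDC5, other isomerases of the family, had log2 fold changes of 0.07, 0.03, 0.07 and -0.08. ERO1A and ERO1B oxidise these isomerases, and ERO1B was the single gene of the 37 with every treated PANC-1 library below both controls. It measured 5.66, 6.25, 7.44 and 5.49 FPKM in PANC-1 IKE libraries, against 7.79 and 8.99 FPKM in PANC-1 DMSO libraries (log2 fold change -0.39, SE 0.12, adjusted p = 0.11). Without PANC-1 IKE replicate 3, the highest of its treated libraries, ERO1B passed as lower (log2 fold change -0.46, adjusted p = 0.0447). ERO1A had a log2 fold change of -0.10. TXNDC5 shares 60.6% of its exon bases with a read-through transcript on the same strand, so its level is uncertain. The read-through was listed at no more than 1.61 FPKM, and TXNDC5 at 71.6 to 110.5 FPKM over all libraries.

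Of the degradation genes other than HERPUD1, SYVN1, the ubiquitin ligase HRD1, had the largest PANC-1 log2 fold change, 0.22 (SE 0.09, adjusted p = 0.227). SYVN1 overlaps FAU, a gene at up to 323.2 FPKM, on the same strand over 7.24% of its exon bases, so its level is uncertain too. Its partner SEL1L was at 0.09, the mannosidase family genes EDEM1, EDEM2 and EDEM3 at -0.07, -0.08 and 0.05, the derlins DERL1 and DERL2 at -0.03 and -0.04, and the lectin OS9 at 0.09. DERL3, another derlin, was not tested, since it reached 1 FPKM in a single library, CFPAC-1 IKE replicate 2 at 1.59 FPKM, and 77.0% of its exon bases lie opposite SMARCB1. WFS1, the ER membrane protein wolframin, was at -0.16, the translocon subunits SEC61A1 and SEC61B at 0.05 and 0.04, and the COPII cargo adaptor SEC24D at -0.10. None of these passed the test.

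In CFPAC-1, 1 of the 36 tested genes was higher with IKE, HERPUD1, and 0 were lower, against a background of 0.864% higher and 0.459% lower (1.32% in either direction). At an unadjusted p under 0.05, 7 were higher and 0 were lower, against 850 higher and 929 lower of all 13077 genes. HERPUD1 measured 58.5 and 61.7 FPKM in CFPAC-1 IKE libraries, against 40.6 and 37.9 FPKM in CFPAC-1 DMSO libraries. Both treated libraries lay above both controls, with means of 60.1 ± 2.26 FPKM with IKE and 39.2 ± 1.90 FPKM with DMSO (SD, n = 2 each), a 1.53-fold rise (log2 fold change 0.60, SE 0.09, adjusted p = 0.00598). The call was lost without CFPAC-1 DMSO replicate 2 or CFPAC-1 IKE replicate 2 (adjusted p = 0.0775 to 0.0855). The median of the 36 genes was 0.08, against 0 for all genes. For 20 of the 37 genes both treated libraries were above both controls and for 8 they were below, where the background is 23.0% above and 23.9% below.

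HSPA5 in CFPAC-1 measured 163.9 and 155.7 FPKM in CFPAC-1 IKE libraries, against 153.6 and 146.5 FPKM in CFPAC-1 DMSO libraries (log2 fold change 0.09, 95% interval -0.06 to 0.24, adjusted p = 0.649). The treated libraries were higher by less than the test could call. HYOU1 measured 66.7 and 66.6 FPKM in CFPAC-1 IKE libraries, against 70.2 and 63.9 FPKM in CFPAC-1 DMSO libraries, and the treated values lay between the controls. HSP90B1 measured 268.1 and 266.2 FPKM in CFPAC-1 IKE libraries, against 255.8 and 239.2 FPKM in CFPAC-1 DMSO libraries (log2 fold change 0.11, adjusted p = 0.611), CALR had a log2 fold change of 0.11 (adjusted p = 0.541) and CRELD2 had 0.07 (adjusted p = 0.804). DNAJB9 (ERdj4), a BiP cochaperone that restrains IRE1, came closest to the threshold after HERPUD1, at 10.9 and 10.7 FPKM in CFPAC-1 IKE libraries, against 7.56 and 6.96 FPKM in CFPAC-1 DMSO libraries (log2 fold change 0.51, SE 0.13, adjusted p = 0.0834). Its treated libraries lay clear of the controls, and it passed with each line fitted alone (adjusted p = 0.0460) and after quantile normalization (0.0440). The summed level of the 37 genes was 3192 and 3124 FPKM with IKE in CFPAC-1, against 3021 and 2935 FPKM with DMSO. The 5 sensors and factors summed to 214.2 and 211.6 FPKM with IKE, against 186.7 and 181.4 FPKM with DMSO, and the degradation genes to 364.4 and 351.1 FPKM with IKE, against 316.7 and 324.2 FPKM with DMSO. Neither pair of sums overlapped, though with 2 libraries per group 23.0% of single genes also lay wholly above their controls. Single genes held much of these sums. XBP1 averaged 146.7 FPKM with IKE and 126.7 FPKM with DMSO, and HERPUD1 60.1 and 39.2 FPKM.

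**Figure D3:**
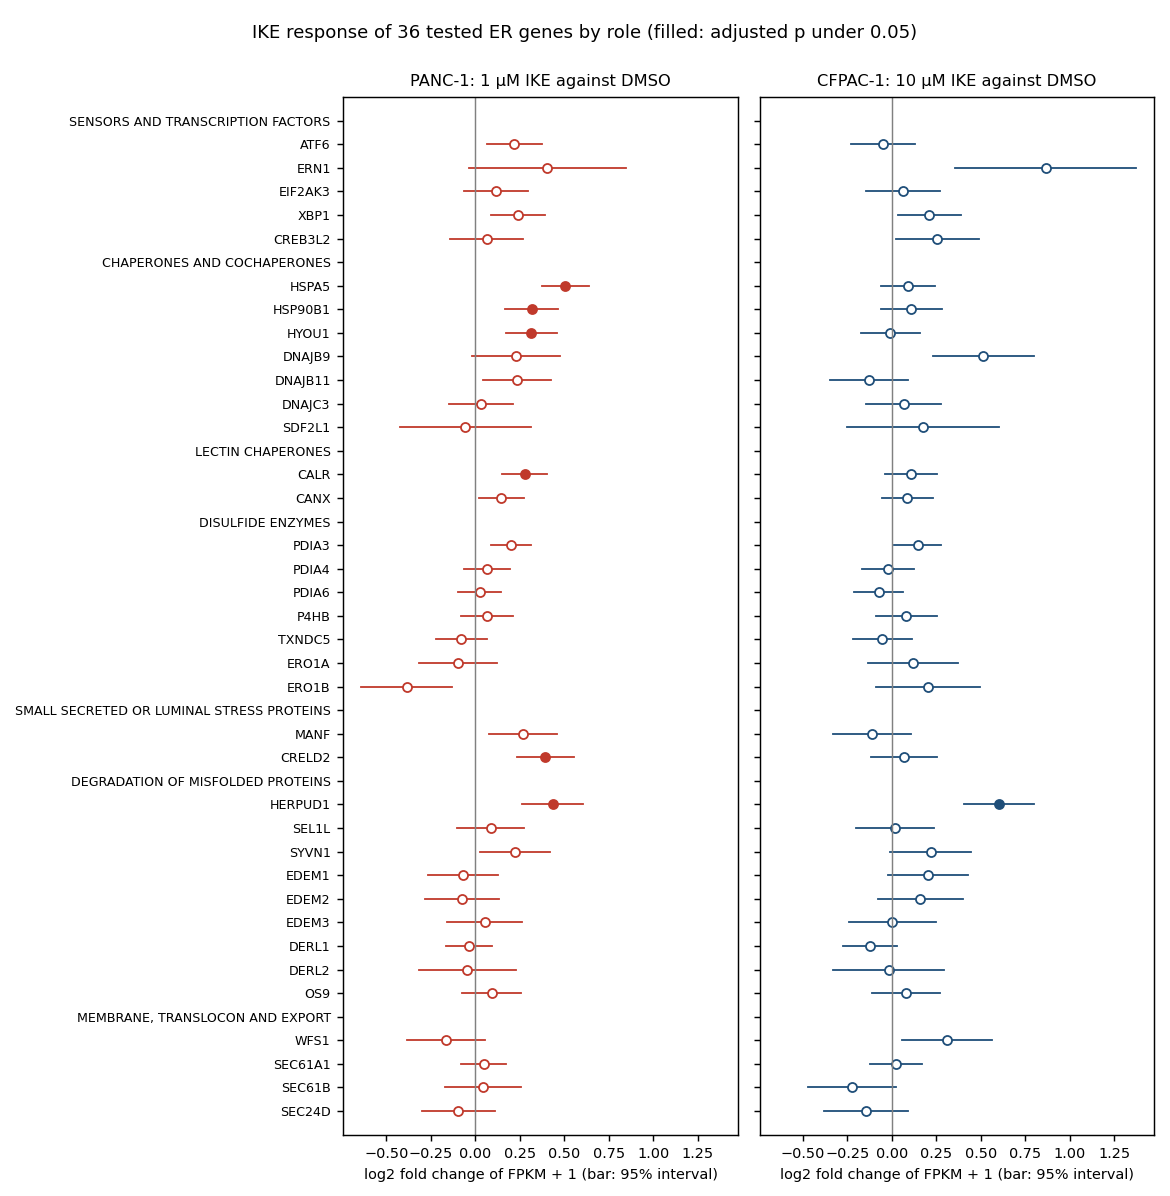
Log2 fold change of FPKM + 1, IKE against DMSO, of the 36 tested ER genes by role in PANC-1 (left, red) and CFPAC-1 (right, blue), with bars for 95% intervals and filled points for an adjusted p under 0.05. In PANC-1 6 points are filled, all to the right of 0, and in CFPAC-1 1 point is filled, HERPUD1 at 0.60; ERN1 in CFPAC-1 lies farthest right at 0.87, with a wide interval.

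Whether the lines responded differently was tested as the difference of their IKE responses, PANC-1 minus CFPAC-1. Of the 36 genes, 0 passed this limma test in either direction, against a background of 0.107% higher and 0.229% lower. At an unadjusted p under 0.05, 6 were higher and 2 lower, against 762 higher and 853 lower of all 13077 genes. HSPA5 had a difference of 0.42 (95% interval 0.22 to 0.62, adjusted p = 0.0989), and MANF, DNAJB11, CRELD2, HYOU1 and ATF6 had differences of 0.38, 0.36, 0.32, 0.32 and 0.27 with adjusted p from 0.223 to 0.341. ERO1B and WFS1 had -0.59 and -0.47 (adjusted p = 0.218 and 0.242). A pass in PANC-1 alone therefore does not show that the lines differ at these genes. HERPUD1 passed in both lines, with a difference of -0.17 (95% interval -0.43 to 0.09, adjusted p = 0.613). Of the 36 genes, 26 had a positive log2 fold change in PANC-1, 25 in CFPAC-1 and 19 in both. Among all 13077 genes, 6263 were positive in PANC-1 and 6491 in CFPAC-1. The overlap between the lines was not tested.

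The sensors and their transcription factors were described in every library, although 0 of 5 passed with IKE in either line. XBP1, the target of IRE1, measured 28.8, 26.1, 26.0 and 26.8 FPKM in PANC-1 IKE libraries, against 24.3 and 21.0 FPKM in PANC-1 DMSO libraries (log2 fold change 0.24, SE 0.07, adjusted p = 0.0995). In CFPAC-1, XBP1 measured 148.9 and 144.3 FPKM in CFPAC-1 IKE libraries, against 128.3 and 125.1 FPKM in CFPAC-1 DMSO libraries (log2 fold change 0.21, SE 0.081, adjusted p = 0.274). Treated libraries were above controls in both lines, but neither difference passed, and gene-level FPKM do not tell spliced from unspliced XBP1. ATF6 measured 25.9, 25.4, 27.9 and 23.8 FPKM in PANC-1 IKE libraries, against 21.5 and 22.4 FPKM in PANC-1 DMSO libraries (log2 fold change 0.22, SE 0.07, adjusted p = 0.135). In CFPAC-1 ATF6 measured 26.0 and 25.1 FPKM in CFPAC-1 IKE libraries, against 26.9 and 26.1 FPKM in CFPAC-1 DMSO libraries (log2 fold change -0.05, SE 0.081, adjusted p = 0.866). The PANC-1 groups of ATF6 were apart, with the treated libraries higher, and the CFPAC-1 groups were apart the other way.

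ERN1, the gene of IRE1, measured 12.0 and 15.5 FPKM in CFPAC-1 IKE libraries, against 6.81 and 7.31 FPKM in CFPAC-1 DMSO libraries (log2 fold change 0.87, SE 0.23, adjusted p = 0.109), a 1.95-fold higher mean. In PANC-1, ERN1 measured 5.22, 2.80, 5.14 and 5.79 FPKM in PANC-1 IKE libraries, against 3.54 and 2.95 FPKM in PANC-1 DMSO libraries (log2 fold change 0.40, SE 0.20, adjusted p = 0.332). Replicate 2 was the lowest of all PANC-1 libraries and the other treated libraries were the highest. ERN1 passed without PANC-1 IKE replicate 2 in CFPAC-1 (adjusted p = 0.0104) and in PANC-1 (log2 fold change 0.59, adjusted p = 0.0277), and in CFPAC-1 with each line fitted alone (adjusted p = 0.0232). EIF2AK3, the gene of PERK, measured 8.57, 8.21, 9.62 and 9.25 FPKM in PANC-1 IKE libraries, against 7.86 and 8.40 FPKM in PANC-1 DMSO libraries. In CFPAC-1, EIF2AK3 measured 12.7 and 13.1 FPKM in CFPAC-1 IKE libraries, against 12.3 and 12.2 FPKM in CFPAC-1 DMSO libraries. Its log2 fold changes were 0.12 in PANC-1 (adjusted p = 0.505) and 0.06 in CFPAC-1 (adjusted p = 0.845). CREB3L2, an ER-resident factor released by cleavage like ATF6, had log2 fold changes of 0.06 in PANC-1 and 0.26 in CFPAC-1 (adjusted p = 0.793 and 0.318).

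**Figure D4:**
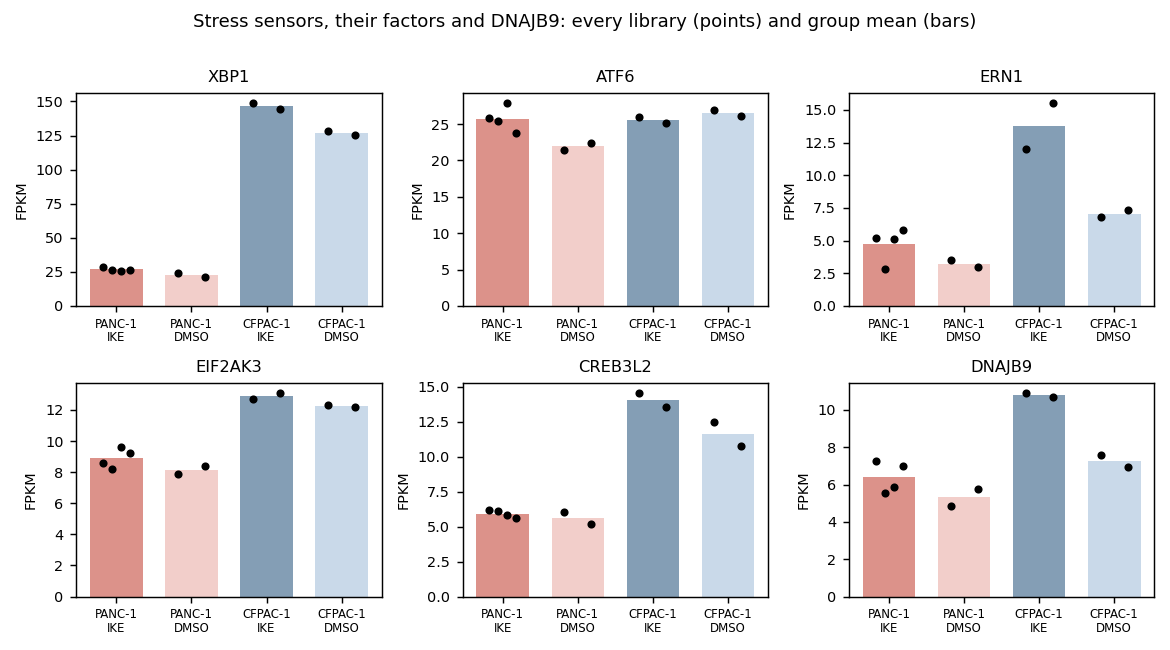
FPKM of the sensors ATF6, ERN1 and EIF2AK3, the factors XBP1 and CREB3L2, and the cochaperone DNAJB9, with each library as a point and each group mean as a bar (n = 4 for PANC-1 IKE, n = 2 for the other groups). ERN1 in CFPAC-1 reached 12.0 and 15.5 FPKM with IKE against 6.81 and 7.31 FPKM with DMSO, and XBP1 stood far lower in all PANC-1 libraries than in all CFPAC-1 libraries.

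The PERK branch leads to ATF4, a factor that amino acid shortage also raises through other kinases, and 12 genes of that arm, none among the 37, were examined beside them. In CFPAC-1, 6 of the 12 rose and 0 fell, against a background of 0.864% higher and 0.459% lower among all genes. ATF4 measured 232.3 and 227.8 FPKM in CFPAC-1 IKE libraries, against 91.4 and 94.0 FPKM in CFPAC-1 DMSO libraries, a 2.48-fold higher mean (adjusted p = 2.98e-06). TRIB3, a pseudokinase induced by ATF4, had a log2 fold change of 1.48 (adjusted p = 3.91e-05) and CHAC1, which breaks down glutathione, a value of 1.86 (adjusted p = 1.36e-04). SESN2, DDIT4 and CEBPG made up the rest. The ATF4 arm and the ER folding genes had, in CFPAC-1, median log2 fold changes of 0.60 (12 genes) and 0.08 (36 genes), with no test between the lists. SESN2 was lost without any 1 of the CFPAC-1 libraries (adjusted p = 0.0652 to 0.0980).

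In PANC-1, 3 of the 12 rose and 1 fell, against a background of 1.21% higher and 1.17% lower among all genes. PPP1R15A (GADD34), which reverses the PERK block on translation, measured 14.0, 12.9, 12.0 and 13.8 FPKM in PANC-1 IKE libraries, against 6.48 and 7.73 FPKM in PANC-1 DMSO libraries (log2 fold change 0.81, SE 0.091, adjusted p = 0.00146). TRIB3 had a log2 fold change of 0.69 (adjusted p = 0.00528) and the stress factor NUPR1 had 1.06 (adjusted p = 0.00681), and DDIT4, an inhibitor of mTORC1 signalling, was lower, with a log2 fold change of -0.47 (adjusted p = 0.0455). ATF4 measured 118.2, 117.6, 105.5 and 123.1 FPKM in PANC-1 IKE libraries, against 99.7 and 98.8 FPKM in PANC-1 DMSO libraries (log2 fold change 0.22, SE 0.063, adjusted p = 0.0951). The treated libraries were above the controls but the difference did not pass. The PANC-1 calls were lost for TRIB3 without PANC-1 DMSO replicate 1 (adjusted p = 0.0778), for NUPR1 without PANC-1 DMSO replicate 2 (0.0860) and for DDIT4 with any library left out except PANC-1 IKE replicate 2 (0.0707 to 0.314). DDIT4 was also lost with no low-value filter, a pseudocount of 0.1, each line fitted alone, PANC-1 IKE replicates 1 and 2 alone or no intensity trend (0.0506 to 0.141). NUPR1 was at or near 0 in CFPAC-1, at no more than 0.01 FPKM.

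The lines differed in their response for 3 of these 12 genes, all with the lower response in PANC-1. The background among all genes is 0.107% higher and 0.229% lower. The difference was -1.08 for ATF4 (95% interval -1.29 to -0.87, adjusted p = 0.00146), -1.42 for DDIT4 (95% interval -1.78 to -1.06, adjusted p = 0.00394) and -1.48 for CHAC1 (SE 0.22, adjusted p = 0.0176). CHAC1 was lost without any 1 of the CFPAC-1 libraries or PANC-1 DMSO replicate 2 (0.0579 to 0.101), and with PANC-1 IKE replicates 1 and 2 alone (0.0646). HSPA5, with the interval given above, lay on the other side of 0 but did not pass this test (adjusted p = 0.0989). DDIT3 (CHOP), the factor linked to death after prolonged ER stress, measured 26.3, 26.4, 22.8 and 27.1 FPKM in PANC-1 IKE libraries, against 17.9 and 20.6 FPKM in PANC-1 DMSO libraries. In CFPAC-1 it measured 26.4 and 21.4 FPKM in CFPAC-1 IKE libraries, against 18.9 and 18.5 FPKM in CFPAC-1 DMSO libraries, with adjusted p of 0.0617 in PANC-1 and 0.218 in CFPAC-1; it was added to the named genes after its values were seen.

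Further ER genes came from lists of sensor processing, translocon, oligosaccharyltransferase, calnexin cycle, thiol enzymes, luminal cofactors, degradation, export and ER-phagy, which with the ATF4 arm hold 136 genes, all tested. Over these 136 genes, PANC-1 had 8 higher and 2 lower, against a background of 1.21% higher and 1.17% lower, and CFPAC-1 had 6 higher and 1 lower, against 0.864% higher and 0.459% lower. The lower counts are near that background, and all 6 genes higher in CFPAC-1 belong to the ATF4 arm. In PANC-1 the higher genes outside the ATF4 arm were ERP29, a thioredoxin-fold chaperone (log2 fold change 0.41, adjusted p = 0.00538), PPIB, the ER cyclophilin (0.34, 0.0117), SIL1, a nucleotide exchange factor of BiP (0.33, 0.0484), SELENOS of the degradation machinery (0.33, 0.0295) and SAR1B, a GTPase of ER export (0.28, 0.0471). AGR2, a disulfide isomerase of mucus-making epithelium, was lower (-0.26, 0.0389). In CFPAC-1, ERN2, the epithelial IRE1 paralog, fell to 4.78 and 4.72 FPKM with IKE, against 7.15 and 7.68 FPKM with DMSO (log2 fold change -0.55, adjusted p = 0.0135), and it was at most 0.06 FPKM in PANC-1. Of 22 translocon, 12 oligosaccharyltransferase, 8 calnexin cycle and 6 ER-phagy genes, 0 passed in either line.

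ERP29 was lost without PANC-1 DMSO replicate 1 (adjusted p = 0.121), PPIB without PANC-1 DMSO replicate 1 or 2 (0.0878 to 0.117), AGR2 and SIL1 with any library left out except PANC-1 IKE replicate 2 (0.0579 to 0.216 and 0.0640 to 0.388), SAR1B with any left out except PANC-1 IKE replicate 1 or 2 (0.0707 to 0.361), and SELENOS without CFPAC-1 IKE replicate 1 or 2, PANC-1 DMSO replicate 1 or 2, or PANC-1 IKE replicate 1 or 4 (0.0560 to 0.239). AGR2, SIL1 and SAR1B were also lost with no low-value filter, each line fitted alone, PANC-1 IKE replicates 1 and 2 alone or no intensity trend (0.0540 to 0.159), SIL1 and SAR1B after quantile normalization (0.0587 and 0.0536), SIL1 with a pseudocount of 0.1 (0.0509), and SELENOS with each line fitted alone or no intensity trend (0.0687 and 0.0503). ERN2 was lost without CFPAC-1 DMSO replicate 2 or CFPAC-1 IKE replicate 1 or 2 (0.0535 to 0.0850), with a pseudocount of 0.1 or 0.5 (0.342 and 0.0511) and with each line fitted alone (0.0501).

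With DMSO alone, the lines held these genes at different levels, and the sensors stood lower in PANC-1 than in CFPAC-1. Of the 36 tested genes, 9 were higher and 19 lower in PANC-1 at an adjusted p under 0.05, against a background of 43.4% higher and 35.2% lower among all genes. After median-ratio scaling the split of the 36 genes was 6 higher and 22 lower. That scaling put the median difference of all genes at -0.01 on the log2 scale, against 0.12 without it, so relative log2 differences, which are the unscaled difference minus that median of 0.12, are given here as a description. The adjusted p-values, ratios and log2 differences not called relative belong to the unscaled values. PANC-1 DMSO libraries lay above both CFPAC-1 DMSO libraries for 12 of the 37 genes and below them for 22, where the background is 49.0% above and 40.3% below. Of the 37 genes, 8 averaged over 100 FPKM in both DMSO groups.

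All 5 sensors and factors were lower in PANC-1. XBP1 had the largest gap, at 24.3 and 21.0 FPKM in PANC-1 DMSO libraries against 128.3 and 125.1 FPKM in CFPAC-1 DMSO libraries, a 5.59-fold lower mean in PANC-1 (log2 difference -2.44, adjusted p = 1.50e-10, relative log2 difference -2.55). ERN1, CREB3L2, EIF2AK3 and ATF6 had log2 differences of -0.93, -0.93, -0.54 and -0.26 (adjusted p = 0.00317, 7.99e-06, 2.52e-04 and 0.0117). Among degradation genes, HERPUD1 was at 12.8 and 11.4 FPKM in PANC-1 against 40.6 and 37.9 FPKM in CFPAC-1 (log2 difference -1.62, adjusted p = 1.25e-08, relative log2 difference -1.74) and SEL1L at 19.5 and 19.7 FPKM against 56.8 and 50.1 FPKM (log2 difference -1.40, adjusted p = 1.12e-07). EDEM1 and EDEM3 were lower as well (relative log2 differences -0.97 and -0.87), as were HSP90B1 (-0.99), ERO1A (-1.05), PDIA3 (-0.78) and SEC24D (-0.96). HERPUD1 thus started from a level 3.25-fold lower in PANC-1 and passed the IKE test in both lines.

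ERO1B was the gene most above its CFPAC-1 level, at 7.79 and 8.99 FPKM in PANC-1 DMSO libraries against 0.95 and 0.99 FPKM in CFPAC-1 DMSO libraries (log2 difference 2.25, adjusted p = 2.42e-08, relative log2 difference 2.13), the opposite of ERO1A. The translocon subunit SEC61A1, the isomerase TXNDC5, the cochaperone SDF2L1 and HYOU1 were also higher, with relative log2 differences of 0.45, 0.43, 0.46 and 0.34. HSPA5 was at 142.0 and 145.8 FPKM in PANC-1 against 153.6 and 146.5 FPKM in CFPAC-1, a log2 difference of -0.06 that did not pass (adjusted p = 0.445). After median-ratio scaling the HSPA5 difference was -0.20, and HSPA5, P4HB and EDEM2 passed as lower (adjusted p = 0.0154, 0.0262 and 0.0284). The higher calls of DNAJB11, SEC61B and WFS1 were lost under the same scaling (adjusted p = 0.120, 0.0744 and 0.0670), and that of DNAJB11 after quantile normalization too (0.0568). CALR, SYVN1 and OS9 did not pass and changed sign under median-ratio scaling. The lower calls of ATF6 and DNAJB9 were lost without CFPAC-1 DMSO replicate 1 or PANC-1 DMSO replicate 1 (adjusted p = 0.0602 to 0.0696 and 0.0883 to 0.121), and that of PDIA6 without PANC-1 DMSO replicate 2 (0.0544). The higher calls of DNAJB11 and SEC61B were lost without CFPAC-1 DMSO replicate 2 or PANC-1 DMSO replicate 1 (0.0728 to 0.0856 and 0.0583 to 0.0609), that of WFS1 without CFPAC-1 DMSO replicate 2 (0.0685), and that of SDF2L1 without either PANC-1 DMSO library or CFPAC-1 DMSO replicate 2 (0.0560 to 0.122).

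**Figure D5:**
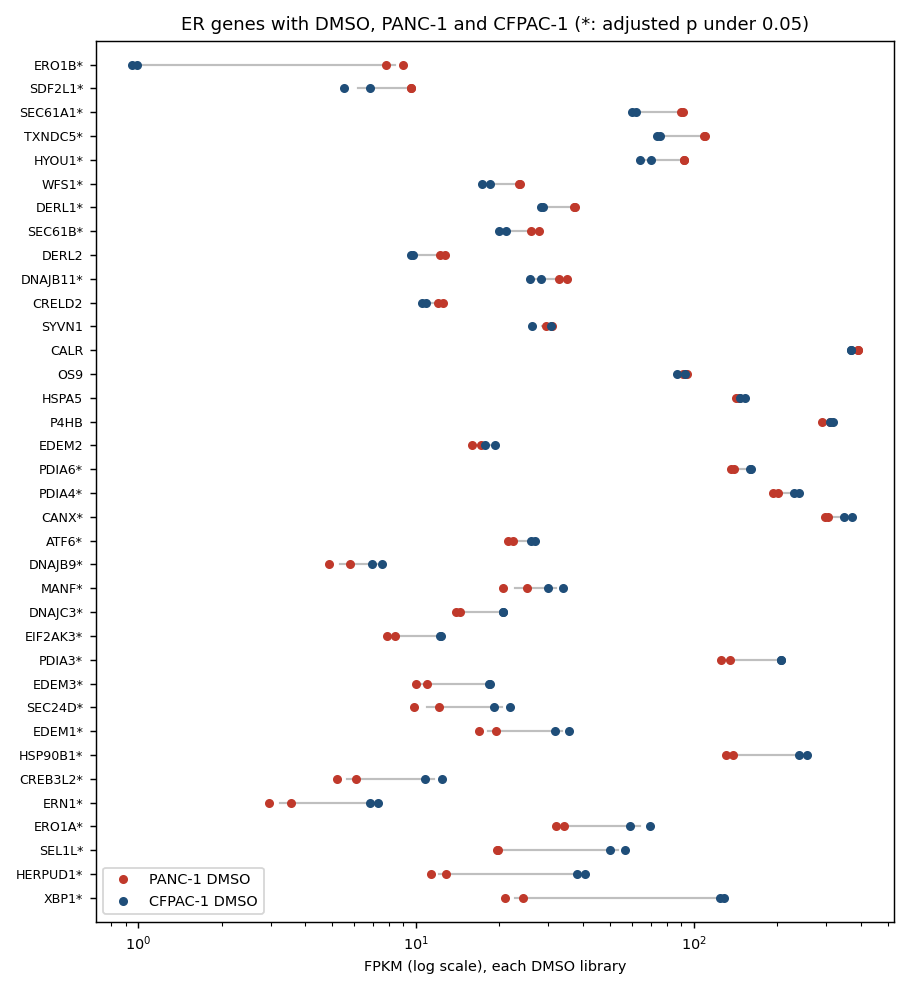
FPKM on a log scale of the 36 tested ER genes in PANC-1 DMSO (red, 2 libraries) and CFPAC-1 DMSO (blue, 2 libraries), with a line between the group means and an asterisk for an adjusted p under 0.05, ordered by log2 difference. ERO1B at the top is highest in PANC-1 relative to CFPAC-1, and XBP1 at the bottom, at 24.3 and 21.0 FPKM in PANC-1 against 128.3 and 125.1 FPKM in CFPAC-1, is the lowest.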

How the data were processed

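RNA of surviving PANC-1 and CFPAC-1 cells was depleted of rRNA and made into stranded libraries, per the labels' protocols. The authors' deposited matrix gives FPKM to 2 decimals for 20289 genes in 10 sample columns. Another 9 columns hold no values and were left out. StringTie 1.3.4, HISAT2 2.1.0, Bowtie2 2.2.8, fastp 0.18.0, DESeq2 and the build GRCh38 are named in the submitters' processing notes. What each tool did, which annotation served and whether strand entered the counting are not given in those notes or the labels, so genes that overlap others are uncertain. FPKM hold no counts, so depth is unknown and no counting error can be stated.

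The 13077 genes that reached 1 FPKM in 2 or more libraries were tested with limma 3.58.1 in R 4.3.3 on log2(FPKM + 1), which understates changes of low genes. All 10 libraries shared one spread estimate with an intensity trend (6 residual and 5.10 prior degrees of freedom). Contrasts were IKE minus DMSO per line, the PANC-1 response minus the CFPAC-1 response, and PANC-1 minus CFPAC-1 with DMSO. Tests were two-sided, with Benjamini-Hochberg adjustment over all genes and a threshold of 0.05. The fit was also run on simulated data, with changes larger than those of the ER genes that rose in PANC-1. That run therefore cannot show how reliable calls of such small changes are. Intervals are 95% intervals of the fit, and ratios are of mean FPKM.

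The 37 genes, the other lists and the tests were chosen with earlier results of these data known. The labels call replicates bioreplicates and do not say if each came from its own culture, so p-values reflect only the spread between these samples, which may be technical. Genes named in full are those passing with IKE, the sensors and HSPA5, and up to 3 genes with the smallest p per further list. Fold changes under other scalings, filters, pseudocounts, a fold threshold, a replicate block, a fit per line and with each library left out were computed as alternatives. Promoters are from RefSeq, and overlaps of exons are from GENCODE 29.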

Additional observations from a re-analysis of the deposited data

Results flagged for a closer look

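Among the 37 genes in the 4 PANC-1 IKE libraries, 4 had 1 library far from the other 3 by Dixon's gap-to-range test. The nominal rate of that test, about 1 in 20, is for independent values, and genes of the same library can shift together. The share among all genes was not computed, so whether 4 of 37 is an excess was not tested. CALR was at 509.84 FPKM in replicate 2, with the next library at 463.44 FPKM. HERPUD1 was at 18.41 FPKM in replicate 1, with the next at 16.23 FPKM. DNAJC3 was at 12.62 FPKM in replicate 2, with the next at 14.93 FPKM, and DERL1 was at 34.08 FPKM in replicate 3, with the next at 36.89 FPKM. Without these libraries CALR and HERPUD1 stayed on the same side of the threshold in PANC-1.

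The IKE responses of 3 genes of the ATF4 arm differed between the lines by the test of the difference itself (PANC-1 minus CFPAC-1, limma). The log2 difference was -1.08 for ATF4, -1.48 for CHAC1 and -1.42 for DDIT4. Dose and line cannot be told apart in these values.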

How the results depend on the processing

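The 2-library groups and the unknown depth limit precision, and log2 fold changes of about 0.3 lie near what these libraries can call. The number of the 37 genes higher with IKE in PANC-1 was 6, and it was 3 with no low-value filter, with each line fitted alone, with PANC-1 IKE replicates 1 and 2 alone and with no intensity trend. It was 1 with a log2 fold change of 0.5 or more in size also required and 1 to 8 with a library left out (1 without either PANC-1 DMSO library, 3 without PANC-1 IKE replicate 1 or either CFPAC-1 IKE library). The number lower was 0, and 0 to 1 with a library left out (1 without PANC-1 IKE replicate 3). In CFPAC-1 the number higher was 1, with 2 after quantile normalization, 3 with each line fitted alone and 0 to 2 with a library left out (0 without replicate 2 of either group, 2 without PANC-1 IKE replicate 2). For the difference of responses it was 0 under every alternative run. Between the lines with DMSO, 9 were higher, with 4 with a log2 difference of 0.5 or more in size also required and 5 to 10 with a library left out (5 without CFPAC-1 DMSO replicate 2).

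Over all genes, CFPAC-1 had 173 calls, 262 after quantile normalization and 80 to 256 with a library left out. PANC-1 had 311 calls, 125 with a log2 fold change of 0.5 or more in size also required, 189 with each line fitted alone, 172 with PANC-1 IKE replicates 1 and 2 alone and 42 to 504 with a library left out. The difference had 44, with 17 with PANC-1 IKE replicates 1 and 2 alone and 13 to 62 with a library left out. The highest counts with a library left out, 256, 504 and 62, all came without PANC-1 IKE replicate 2. Some settings use smaller groups, and the cause of these shifts was not tested.

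Samples of the groups share replicate numbers, and the labels do not say if samples of the same number belong together. The differences between replicates 1 and 2 correlated at 0.0495 in PANC-1 and -0.00146 in CFPAC-1 over 13077 genes. No broad shift shared by replicate number was thus seen, but these values cannot exclude pairing. With the replicate number as a block, 1 of the 37 genes was higher in PANC-1, HSPA5, and 1 in CFPAC-1, and calls over all genes were 63 in PANC-1, 79 in CFPAC-1 and 2 for the difference. Under the block the adjusted p was 0.122 for ERN2 in CFPAC-1, and 0.0941 for DDIT4 and 0.135 for CHAC1 in the difference of responses. No called value changed sign under any alternative. The comparison between lines was not run under the block or with each line fitted alone.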
